A study of Mus musculus with 6 samples.

Results

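The 7 genes described here encode receptors for extracellular nucleotides and adenosine and an enzyme that breaks nucleotides down: the P2Y receptors P2ry12, P2ry13 and P2ry6, the P2X channel subunits P2rx4 and P2rx7, the adenosine receptor Adora3 and the ectonucleotidase Entpd1. They were chosen by gene symbol, and all 7 were found among the 15912 genes of the deposited table. The study sorted microglia, the resident macrophages of the brain, from the hippocampus of male C57BL/6 mice aged 3 months. BODIPY, a dye of neutral lipids, divided them into a BODIPY-high gate rich in lipid droplets and a BODIPY-low gate. Mice of both gates had been injected intraperitoneally with LPS, a lipopolysaccharide of the bacterial envelope that inflames tissue, over 4 days at 1 mg/kg, and were perfused 24 h later. Each gate had 3 libraries, each from about 10000 live CD11b+ CD45 low cells sorted from the pooled hippocampi of 2 mice. The BODIPY-high libraries held 37633089 to 39220494 reads and the BODIPY-low libraries 34899413 to 36518323. Mice given saline were not analysed here, so the values compare droplet load within LPS-treated mice and not LPS with saline.

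Nucleotides that leak from stressed or dying cells act on microglia as a local alarm. ATP opens the P2X channels. ADP acts on P2Y12 and P2Y13, which couple to Gi proteins, and UDP acts on P2Y6, a receptor that drives phagocytosis. ENTPD1, also called CD39, cleaves ATP and ADP to AMP, from which other ectoenzymes make adenosine, the ligand of the adenosine A3 receptor encoded by Adora3. P2ry12 is also a classic marker of microglia against other macrophages, and its protein steers microglial processes towards damage.

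The promoters of 4 of the genes are shown for the features the results turn on. P2ry12 and P2ry13 are neighbours on chromosome 3 whose levels moved together over the libraries, and P2rx4 and Adora3 are the 2 genes whose libraries did not overlap between gates. The windows run from 250 bases before to 50 bases after the RefSeq start of transcription (GRCm38.p6, the assembly of mm10) and are written 5′ to 3′ on the strand of the gene. Capitals mark GAGGAA, searched on both strands (TTCCTC when read on the opposite strand). It is a purine-rich sequence to which the myeloid factor PU.1 and other ETS factors can bind. Other sequences bound by these factors were not searched for, so a window without GAGGAA may still hold one. The windows lie at chr3:59262936-59263235 on the minus strand for P2ry12, chr3:59210833-59211132 on the minus strand for P2ry13, chr5:122707294-122707593 on the plus strand for P2rx4 and chr3:105904171-105904470 on the plus strand for Adora3. The RefSeq starts of P2ry12 and Adora3 differ from the edges of the GENCODE genes given with their values.

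P2ry12: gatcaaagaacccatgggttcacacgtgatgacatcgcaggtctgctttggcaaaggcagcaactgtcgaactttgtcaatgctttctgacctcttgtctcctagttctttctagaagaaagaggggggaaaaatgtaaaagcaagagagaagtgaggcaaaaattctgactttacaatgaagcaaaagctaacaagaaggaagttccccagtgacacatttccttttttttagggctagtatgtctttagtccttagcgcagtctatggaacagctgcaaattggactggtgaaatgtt
P2ry13: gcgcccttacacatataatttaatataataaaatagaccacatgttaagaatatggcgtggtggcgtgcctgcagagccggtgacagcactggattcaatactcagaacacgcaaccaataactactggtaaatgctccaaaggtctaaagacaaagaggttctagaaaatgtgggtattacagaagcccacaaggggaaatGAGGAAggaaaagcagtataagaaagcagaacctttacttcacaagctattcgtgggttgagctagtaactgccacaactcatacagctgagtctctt
P2rx4: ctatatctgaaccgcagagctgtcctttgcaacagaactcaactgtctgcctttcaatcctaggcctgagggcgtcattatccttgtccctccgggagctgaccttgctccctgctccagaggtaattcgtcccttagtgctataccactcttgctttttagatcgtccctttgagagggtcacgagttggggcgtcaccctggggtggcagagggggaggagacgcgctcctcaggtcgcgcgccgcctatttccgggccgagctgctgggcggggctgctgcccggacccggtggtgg
Adora3: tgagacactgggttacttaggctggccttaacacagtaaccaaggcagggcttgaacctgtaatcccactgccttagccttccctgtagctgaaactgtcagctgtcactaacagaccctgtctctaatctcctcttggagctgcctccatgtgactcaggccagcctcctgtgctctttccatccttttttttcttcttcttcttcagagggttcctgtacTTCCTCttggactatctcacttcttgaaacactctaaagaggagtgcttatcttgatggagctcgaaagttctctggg

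GAGGAA was found in the P2ry13 window, beginning 48 bases before the start, and in the Adora3 window on the opposite strand 28 bases before the start. Neither the P2ry12 nor the P2rx4 window held it. The windows of P2rx7 and Entpd1, not printed, held 1 match in each of 2 for P2rx7 and 2 and 0 matches in those of Entpd1. No window of P2ry6 was searched. Of all 32851 RefSeq promoter windows of 300 bases, 28.28% held it, so a match describes the letters only. TATAAA, the TATA box, was in 13.62% of all windows and in none of these 4. The P2rx4 window had a GC content of 60.3%, against 42.3% for each of P2ry12 and P2ry13 and 48.3% for Adora3, and the median of all windows was 52.67%.

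P2ry12 was among the most abundant genes of these microglia. It ranked between 14 and 24 among all genes of a library and took 0.373 to 0.651% of all reads, and P2ry13 ranked between 27 and 46. Levels were compared between genes as normalized counts (gene reads divided by a size factor per library) per kb of annotated exon. On that scale P2ry12 averaged 75487 ± 20031 per kb in BODIPY-high libraries and 91105 ± 6648 per kb in BODIPY-low libraries (SD, n = 3 each, as in all means here). P2ry13 followed with 41804 ± 11536 and 47152 ± 8378 per kb, and P2ry12 exceeded it in 6 of 6 libraries. P2ry12 and P2ry13 together made up 83.2 to 89.1% of the summed per-kb level of the 7 genes in each library.

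The enzyme Entpd1 (6769 ± 1651 per kb in BODIPY-high and 7333 ± 1348 per kb in BODIPY-low libraries) and the UDP receptor gene P2ry6 (5450 ± 965 and 6554 ± 908 per kb) came next. These neighbours in the order did not differ beyond their spread, since P2ry6 stood above Entpd1 in the libraries numbered 3 of both gates and below it in the other 4. P2rx7 had 2881 ± 118 per kb in BODIPY-high and 2883 ± 276 per kb in BODIPY-low libraries, and P2rx4 1585 ± 164 and 1267 ± 139 per kb. Adora3 was the lowest of the 7, with 334 ± 4.49 per kb in BODIPY-high and 462 ± 65.4 per kb in BODIPY-low libraries. Even so, no library held fewer than 1226 reads of it, and all 7 genes passed the filter on low values (10 or more normalized counts in 3 or more libraries).

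**Figure D1:**
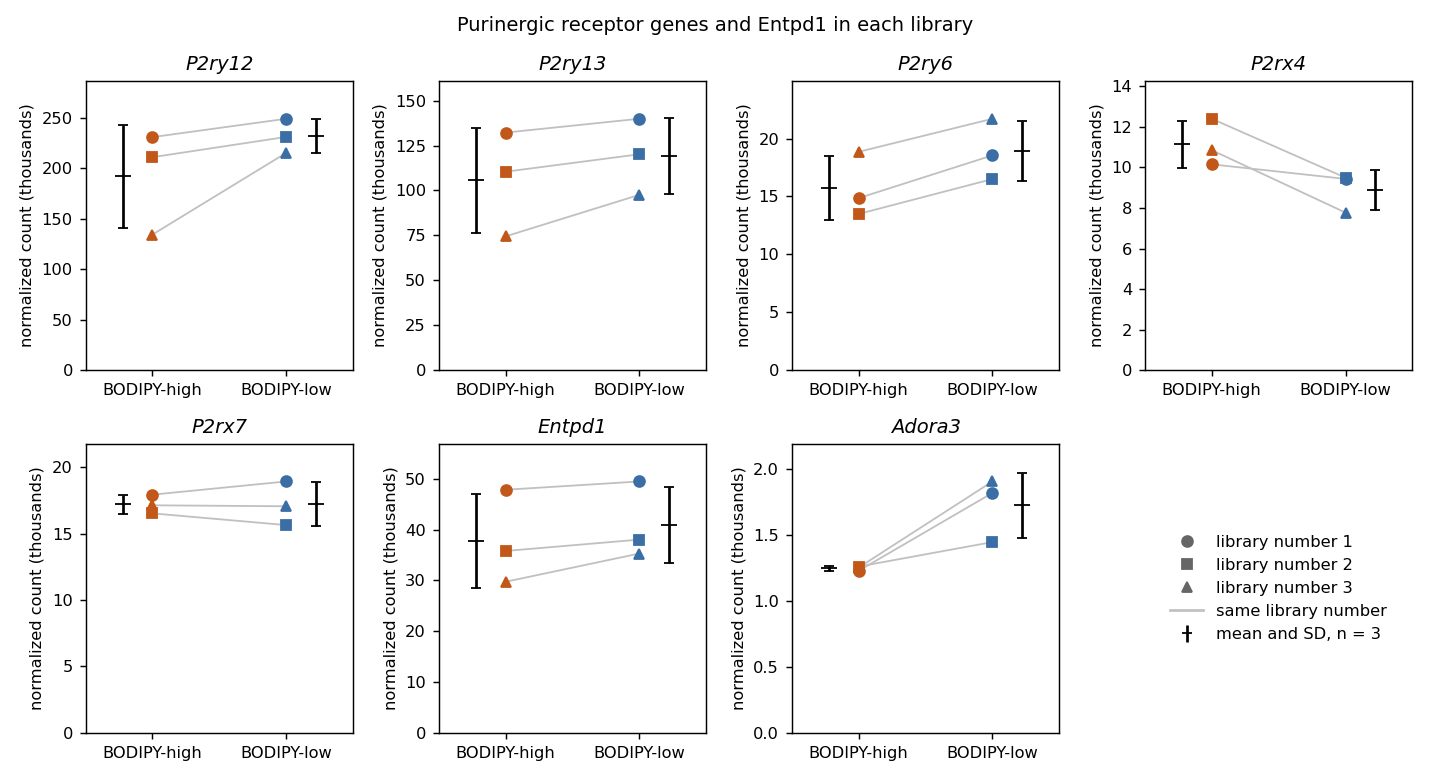
Normalized counts (linear axes from 0) of the 7 genes in each BODIPY-high (left, orange) and BODIPY-low (right, blue) library, with lines joining libraries of the same number and bars for the mean and SD of 3 libraries. Adora3 lies below, and P2rx4 above, in every BODIPY-high library compared with every BODIPY-low library, and the other 5 genes overlap.

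Between the gates, no gene of the 7 passed the test over all 12767 genes (limma on log2 of the normalized count + 1, two-sided, Benjamini-Hochberg adjusted p under 0.05), where 262 genes, or 2.05%, were called, 2.03% as higher and 0.0235% as lower in the BODIPY-high gate. At an unadjusted p under 0.05, 1 of the 7 was higher (P2rx4) and 1 lower (Adora3) in BODIPY-high microglia, against 8.03% and 2.27% of all genes tested. With the library number as a block, 1 was higher (P2rx4) and 4 lower (P2ry12, P2ry13, P2ry6 and Adora3) at an unadjusted p under 0.05, against 11.6% and 6.28% of all genes, and after adjustment Adora3 alone passed (P2ry6 had an adjusted p of 0.0541). On reads recovered from the table, edgeR called 0 of the 7 (1.75% of all genes) and DESeq2 called Adora3 as lower (3.89% of all genes in either direction). The median log2 change of the 7 was -0.20, against -0.0043 over all genes tested. Within pairs of libraries of the same number, 5 of the 7 genes were lower in the BODIPY-high library in 3 of 3 pairs, and P2rx4 was higher in 3 of 3. The same held for 19% of all genes tested in the lower and 20.7% in the higher direction. The labels do not say whether libraries of a gate come from separate pools of mice, so the p-values rest on a spread between samples that may be technical.

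Among the receptors of ADP, P2ry12 (chromosome 3, 59216272 to 59262871, minus strand, mm10) had 231012, 211128 and 134430 normalized counts in BODIPY-high libraries 1, 2 and 3, and 249230, 231227 and 215402 in BODIPY-low libraries 1, 2 and 3. BODIPY-high library 3 stood far below the other 5 libraries, BODIPY-high library 2 just below the lowest BODIPY-low library, and BODIPY-high library 1 within the BODIPY-low range. The mean was 192190 ± 51000 in the BODIPY-high gate and 231953 ± 16926 in the BODIPY-low gate, a ratio of 0.829. The log2 change of -0.31 ± 0.20 (SE, 95% interval -0.77 to 0.16) did not pass (limma adjusted p = 0.713). It was -0.068 when BODIPY-high library 3 was left out. Within same-numbered pairs the BODIPY-high library held 0.927, 0.913 and 0.624 times the P2ry12 level of its partner. In bulk libraries, a smaller share of cells that express a gene and less RNA per cell cannot be told apart.

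P2ry13, the other ADP receptor (chromosome 3, 59207892 to 59210882, minus strand), had 132184, 110421 and 74440 normalized counts in BODIPY-high libraries 1, 2 and 3, and 139892, 120139 and 97566 in BODIPY-low libraries 1, 2 and 3. The gates overlapped, and in each gate the library numbered 1 was the highest and the library numbered 3 the lowest. The log2 change was -0.20 ± 0.22 (SE, 95% interval -0.69 to 0.30; limma adjusted p = 0.858), and 0.035 without BODIPY-high library 3. P2ry12 exceeded P2ry13 by 1.75 to 1.91 times in BODIPY-high and 1.78 to 2.21 times in BODIPY-low libraries. Centred on their own means, the log2 profiles of P2ry12 and P2ry13 over the 6 libraries differed by a root mean square of 0.11, and those of P2ry13 and Entpd1 by 0.11 as well. The same distance was 0.18 to 0.44 for P2ry6, P2rx4, P2rx7 and Adora3 against any of the 7 genes.

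P2ry13 and P2ry12 lie 5390 bases apart inside the body of Med12l, a gene of the Mediator complex on the opposite strand, together with the UDP-glucose receptor gene P2ry14 and the orphan receptor gene Gpr171. High level was not shared across this cluster. P2ry14 averaged 52.0 ± 17.0 normalized counts in BODIPY-high and 40.7 ± 22.1 in BODIPY-low libraries (log2 change 0.42, limma adjusted p = 0.869). Gpr171 had 8 reads in BODIPY-high library 3 and 0 in the other 5 libraries, where a count of 0 allows up to 3 reads. Med12l itself averaged 1416 normalized counts in BODIPY-high and 1974 in BODIPY-low libraries (log2 change -0.49, limma adjusted p = 0.497). The library kits keep no strand. The annotated exons of P2ry12 share 9 bases with exons of Med12l and those of P2ry13 none, and reads from Med12l introns at these places cannot be told apart from theirs.

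**Figure D2:**
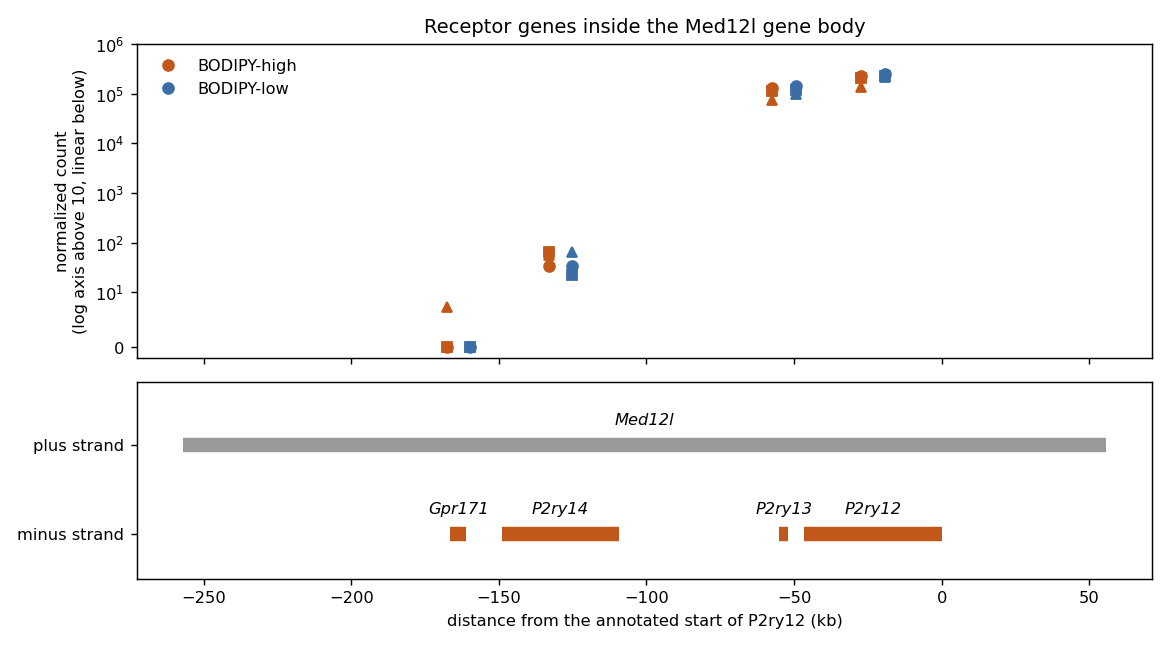
Top, normalized counts per library (log axis above 10, linear below) of the receptor genes inside Med12l for BODIPY-high (orange, left of each pair) and BODIPY-low (blue) libraries, with circles, squares and triangles for libraries 1, 2 and 3. Bottom, the annotated gene bodies by distance in kb from the start of P2ry12. P2ry12 and P2ry13 lie at 74440 or above in each library, and P2ry14 stays between 22.7 and 65.8.

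P2ry6, the UDP receptor gene (chromosome 7, 100937630 to 100974649, minus strand), had 14858, 13491 and 18854 normalized counts in BODIPY-high libraries 1, 2 and 3, and 18549, 16507 and 21711 in BODIPY-low libraries 1, 2 and 3. The libraries numbered 3 were the highest of their gates, unlike for P2ry12 and P2ry13, and BODIPY-high library 3 alone overlapped the BODIPY-low range. Each BODIPY-high library held 0.801 to 0.868 times the P2ry6 level of its same-numbered partner. The log2 change was -0.27 ± 0.15 (SE, 95% interval -0.60 to 0.059; limma adjusted p = 0.607). Leaving out BODIPY-high library 3 gave -0.41, and leaving out either BODIPY-high library 2 or BODIPY-low library 3 gave -0.17. P2ry2, a receptor of ATP and UTP that lies 21919 bases from P2ry6, averaged 256 ± 22.5 normalized counts in BODIPY-high and 213 ± 14.6 in BODIPY-low libraries (log2 change 0.26, adjusted p = 0.773). The gene on the other side, Arhgef17, was called (48.6 normalized counts in BODIPY-high and 1.05 in BODIPY-low libraries, log2 change 4.55, limma adjusted p = 0.0259). Of all genes tested, 2.03% were called higher. The BODIPY-low mean of Arhgef17 lay under the 3 reads that a count of 0 allows. Choroid plexus and macrophage markers rose in the same gate (below), and the part of those cells in Arhgef17 was not tested.

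Of the ATP-gated channels, P2rx4 was the one gene of the 7 whose libraries were all higher in the BODIPY-high gate. P2rx4 (chromosome 5, 122707544 to 122729738, plus strand), which in microglia sits largely in lysosomes, had 10154, 12402 and 10853 normalized counts in BODIPY-high libraries 1, 2 and 3, and 9433, 9495 and 7773 in BODIPY-low libraries 1, 2 and 3. The gates did not overlap, as for 10.4% of all genes tested in that direction, although BODIPY-high library 1 stood only 1.08 times above its partner. The mean was 11136 ± 1150 in BODIPY-high and 8900 ± 977 in BODIPY-low libraries, a ratio of 1.25. The log2 change of 0.32 ± 0.11 (SE, 95% interval 0.064 to 0.58) did not pass over all genes (limma adjusted p = 0.325). With any 1 library left out it lay between 0.23 and 0.39.

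P2rx7 (chromosome 5, 122643911 to 122691432, plus strand), the channel that high ATP opens and that can trigger the inflammasome, lies 16112 bases from P2rx4. It had 17933, 16526 and 17132 normalized counts in BODIPY-high libraries 1, 2 and 3, and 18928, 15644 and 17061 in BODIPY-low libraries 1, 2 and 3. The BODIPY-high values lay within the BODIPY-low range. Its log2 change was 0.0024 ± 0.098 (SE, limma adjusted p = 0.997), with a 95% interval of -0.22 to 0.22. With 1 library left out the change ran from -0.064 without BODIPY-low library 2 to 0.073 without BODIPY-low library 1, and it was also below 0 without BODIPY-high library 1 or BODIPY-low library 3 (-0.028 and -0.0017). The P2rx4 level was 0.566, 0.750 and 0.634 times that of P2rx7 in BODIPY-high libraries 1, 2 and 3, and 0.498, 0.607 and 0.456 times in BODIPY-low libraries 1, 2 and 3, not corrected for length, with the gates overlapping. A microRNA gene, Mir8115, shares 119 exon bases with P2rx7 and averaged under 3 normalized counts in each gate.

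Adora3, whose receptor binds adenosine and couples to Gi, was lower in every BODIPY-high library than in any BODIPY-low library. It had 1227, 1259 and 1252 normalized counts in BODIPY-high libraries 1, 2 and 3, and 1817, 1445 and 1904 in BODIPY-low libraries 1, 2 and 3. The gates did not overlap, as for 5.95% of all genes tested in that direction. The coefficient of variation was 1.34% in the BODIPY-high gate, against 14.2% in the BODIPY-low gate. The BODIPY-high value rests on 3 libraries of 1226 to 1361 reads and is below the counting error of such counts. The mean was 1246 ± 16.7 in BODIPY-high and 1722 ± 244 in BODIPY-low libraries, a ratio of 0.724. The log2 change of -0.46 ± 0.13 (SE, 95% interval -0.75 to -0.16) did not pass with the gate as the only term (limma adjusted p = 0.166). It passed with the library number as a replicate block (adjusted p = 0.0483, where 4.83% of genes were called, 0.462% as lower) and with DESeq2 on recovered reads (adjusted p = 0.0410, 0.251% called lower), but not with edgeR (adjusted p = 0.146). Over the 17 alternatives the adjusted p of Adora3 ran from 0.0410 to 0.557. The change ran from -0.58 to -0.38 with 1 library left out.

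The count of Adora3 is less certain than the others. Its annotated gene (chromosome 3, 105870858 to 105908926, plus strand) overlaps Tmigd3 on the same strand, and 779 of its 3729 exon bases (20.9%) are shared. How the counting treated reads in shared exons depends on the annotation used, which was not given in the sources used here. Tmigd3 averaged 70.9 normalized counts in BODIPY-high and 100.3 in BODIPY-low libraries (log2 change -0.55, limma adjusted p = 0.784).

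Entpd1 (chromosome 19, 40612366 to 40741602, plus strand), the enzyme that removes extracellular ATP and ADP, had 47816, 35780 and 29721 normalized counts in BODIPY-high libraries 1, 2 and 3, and 49454, 38017 and 35278 in BODIPY-low libraries 1, 2 and 3. The gates overlapped, and in both gates library 1 was the highest and library 3 the lowest, as for P2ry13. The log2 change was -0.13 ± 0.19 (SE, 95% interval -0.55 to 0.30; limma adjusted p = 0.899). Leaving out BODIPY-high library 3 turned it to 0.031, and leaving out BODIPY-low library 1 to 0.017. Tctn3, which begins 133 bases from Entpd1, averaged 924 normalized counts in BODIPY-high and 947 in BODIPY-low libraries (log2 change -0.037, adjusted p = 0.966). The other tested neighbours of the 7 genes, Igsf10, Camkk2, Ift81, Rap1a and I830077J02Rik, had log2 changes from -0.22 to 0.64 and none was called.

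**Figure D3:**
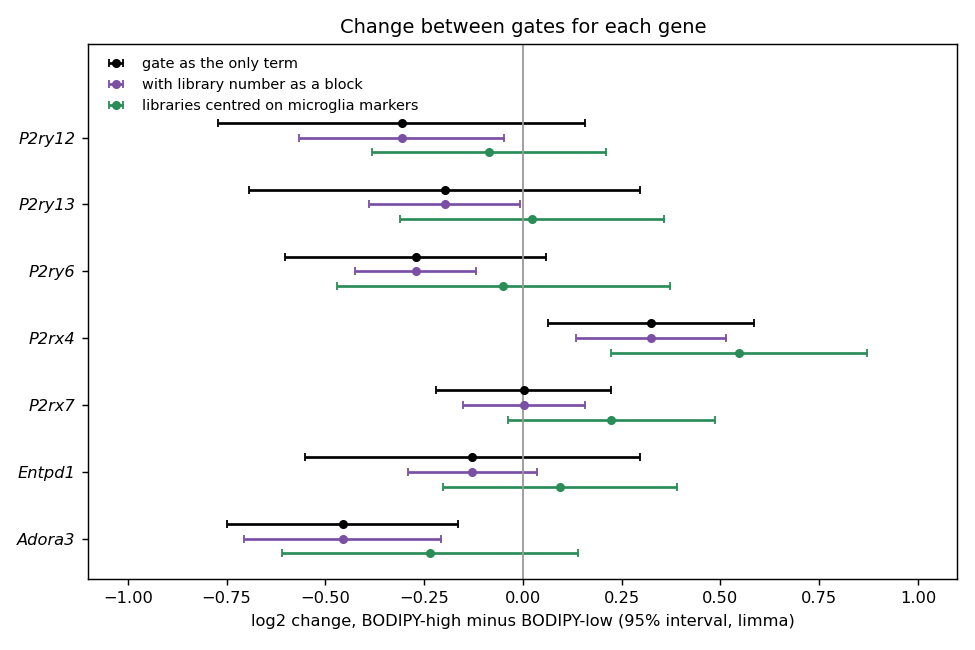
Log2 change between gates (BODIPY-high minus BODIPY-low) with 95% intervals from limma, with the gate as the only term (black), with the library number as a block (purple) and with each library centred on 12 microglia markers (green). The black intervals of P2rx4 (0.064 to 0.58) and Adora3 (-0.75 to -0.16) do not cross 0, before any adjustment over genes. The purple intervals of these 2 genes, P2ry12 (-0.57 to -0.047), P2ry13 (-0.39 to -0.0063) and P2ry6 (-0.42 to -0.12) do not cross 0 either, and centring shifts every gene upwards by 0.22.

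BODIPY-high library 3, the lowest in P2ry12 and P2ry13, was also the lowest in the mean of 12 microglia markers and the highest in border-associated macrophage markers. Among the microglia markers, Sall1 and Siglech were lowest in BODIPY-high library 2 instead, and Aif1 in BODIPY-low library 1 (6495, against 8626 in BODIPY-high library 3). Of the 12 microglia markers (Tmem119, Cx3cr1, Csf1r and others), which were all present in every library, 12 had a negative log2 change and 0 were called by limma. At an unadjusted p under 0.05 in limma, 2 of the 12 were lower, against 2.27% of all genes tested. Of the 12, edgeR called 0 and DESeq2 called 1 as lower, against 0.251% of all genes called lower by DESeq2. With the replicate block 2 of the 12 were called lower, against 0.462% of all genes tested. Their mean deviation on the log2 scale was 0.060, -0.094 and -0.30 in BODIPY-high libraries 1, 2 and 3, and 0.18, 0.084 and 0.073 in BODIPY-low libraries 1, 2 and 3. P2ry12 deviated by -0.63 in BODIPY-high library 3 and P2ry13 by -0.56. In the same library the 12 markers of border-associated macrophages, which line meninges and vessels, summed to 122302 normalized counts, against 43994 and 48812 in BODIPY-high libraries 1 and 2 and 17574 to 24502 in BODIPY-low libraries. Stab1, whose gates overlapped, made up most of the BODIPY-low sums (14952 to 20183, against 18340 to 36164 in BODIPY-high libraries). Each of these 12 markers had a positive log2 change. Limma called 9 of the 12 as higher in the BODIPY-high gate, against 2.03% of all genes tested, and none was at 0 in any library. All 5 choroid plexus markers were called higher too. Their sums were 38665 to 50521 in BODIPY-high and 301 to 2187 in BODIPY-low libraries, where Folr1 was at 0 in BODIPY-low library 2. Unlike the macrophage sum, the choroid plexus sum was no higher in BODIPY-high library 3 (50159) than in library 2 (50521). In BODIPY-high libraries 1, 2 and 3 the monocyte marker sums were 9109, 20246 and 32123, the oligodendrocyte sums 8183, 8367 and 14314, and the astrocyte sums 14543, 13766 and 12632. In BODIPY-low libraries these sums ran from 9664 to 24332, from 7175 to 7263 and from 10913 to 11905. The part of these cells in the values of the 7 genes was not tested.

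With every library centred on the mean of the 12 microglia markers, the median of all genes moved from -0.0043 to 0.22, and each gene of the 7 moved by the same amount. Set against the microglia markers in this way, P2ry12 had a log2 change of -0.085 ± 0.13, P2ry13 of 0.024 ± 0.15 and Entpd1 of 0.094 ± 0.13 (SE). P2ry6 was at -0.050 ± 0.19 and P2rx7 at 0.22 ± 0.12. P2rx4 stood at 0.55 ± 0.15 on that scale (limma adjusted p = 0.0924) and Adora3 at -0.23 ± 0.17 (adjusted p = 0.513). The P2rx4 level relative to P2ry12 was 0.0440, 0.0587 and 0.0807 in BODIPY-high libraries 1, 2 and 3, and 0.0378, 0.0411 and 0.0361 in BODIPY-low libraries 1, 2 and 3. The gates did not overlap in this ratio, but P2rx4 alone did not overlap either, as for 10.4% of all genes tested in that direction. The highest ratio was in BODIPY-high library 3, where P2ry12 was lowest. The share of gene ratios that separate the gates was not counted.

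**Figure D4:**
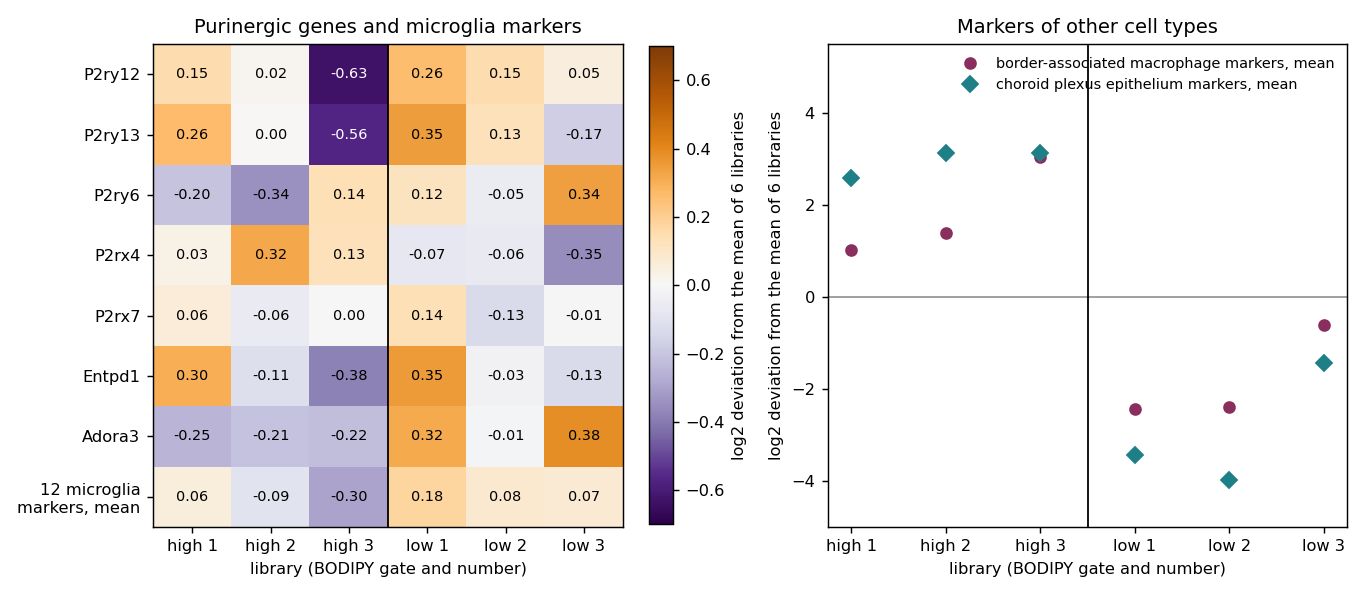
Left, log2 deviation of each gene, and of the mean of 12 microglia markers, from its own mean over 6 libraries. Right, the same for the mean of 12 border-associated macrophage and 5 choroid plexus markers. BODIPY-high library 3 holds the lowest P2ry12 (-0.63) and P2ry13 (-0.56) and the highest macrophage marker mean (3.05).

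Genes with profiles most like the 7 were taken from 7111 tested genes with a mean of at least 500 normalized counts, by the root mean square difference of centred log2 values over the 6 libraries. For P2ry12 these were Tmem100 (0.046), the BMP signal transducer Smad5 (0.062) and Zfp119a (0.069), against a median distance of 0.32 to all candidates. P2ry13 was nearest to Mfap3 (0.051), Galnt4 (0.070) and Zswim3 (0.078). Nearest to P2ry6 were Trim65 (0.032), Ppp1r14b (0.033) and Arhgap39 (0.044), and nearest to Entpd1 were the endosomal receptor gene Tlr13 (0.054), Zfhx3 (0.057) and Tmcc3 (0.063). P2rx4 lay closest to D10Wsu102e, the cholesterol synthesis gene Cyp51 and the tubulin gene Tubb6 (0.059 each). P2rx7, whose own profile was nearly flat, lay closest to the TGF-beta receptor gene Tgfbr2 (0.024), the DNA repair gene Ercc5 (0.025) and the TNF receptor gene Tnfrsf1b (0.033). Adora3 had more distant neighbours, Slc4a1ap (0.068), Calhm2 (0.096) and the TGF-beta antagonist gene Smad7 (0.098). None of these 21 genes was called between gates (limma adjusted p of 0.216 or more), against 2.05% of all genes tested. They were picked for likeness over the same 6 libraries, gate difference included. Their lack of calls therefore follows largely from that choice.

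The other genes of the pathway formed 10 lists of 58 genes, of which 43 were tested, 7 lay below the filter and 8 were not analysed here. No gene of the 43 passed limma, against 2.05% of all genes. At an unadjusted p under 0.05, 4 of the 43 were higher and 1 lower, against 8.03% and 2.27% of all genes. On recovered reads edgeR called 0 (1.75% of all genes) and DESeq2 1 (3.89%). The median log2 change was 0.018, against -0.0043 over all genes tested. Gates did not overlap, with BODIPY-high libraries higher, for P2ry1, P2ry2, Adora2b, Nt5e, Adk, Ampd2 and Gnai1, as for 10.4% of all genes tested. In the lower direction they did not overlap for Gpr34 and Pnp, as for 5.95% of all genes tested.

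Among the remaining receptors, 3 of the other P2Y genes were tested. P2ry2 was the most abundant, and P2ry1, an ADP receptor coupled to Gq, had 17.0, 32.9 and 23.0 normalized counts in BODIPY-high libraries 1, 2 and 3, and 16.5, 9.28 and 4.21 in BODIPY-low libraries 1, 2 and 3. Its gates did not overlap (log2 change 1.32 ± 0.65, SE, limma adjusted p = 0.551). Gpr34, a lysophosphatidylserine receptor gene related to P2ry12 that is also 1 of the 12 microglia markers used above, reached 109282, 112552 and 73673 normalized counts in BODIPY-high libraries 1, 2 and 3, and 123057, 122986 and 116387 in BODIPY-low libraries 1, 2 and 3. Its libraries did not overlap (log2 change -0.32 ± 0.17, adjusted p = 0.594), and like P2ry12 it was lowest in BODIPY-high library 3. P2rx1 led the other P2X genes with 690 ± 26.7 in BODIPY-high and 741 ± 180.0 normalized counts in BODIPY-low libraries (adjusted p = 0.951).

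Of the other adenosine receptors, Adora1 averaged 199 ± 57.5 normalized counts in BODIPY-high and 256 ± 74.1 in BODIPY-low libraries (log2 change -0.36, limma adjusted p = 0.790). Adora2b, whose receptor couples to Gs, had 15, 54 and 23 reads in BODIPY-high libraries 1, 2 and 3, and 0, 1 and 8 reads in BODIPY-low libraries 1, 2 and 3. Its log2 change of 3.33 ± 0.97 did not pass (adjusted p = 0.187). Adora2a held 2, 3 and 11 reads in BODIPY-high and 2, 0 and 1 reads in BODIPY-low libraries and lay below the filter. Adora3 thus had the highest level of the 4 adenosine receptor genes, with 334 normalized counts per kb in BODIPY-high and 462 in BODIPY-low libraries, against 34.4 and 44.3 per kb for Adora1 and 16.3 and 1.71 per kb for Adora2b.

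Nt5e encodes CD73, the enzyme of the step after ENTPD1, from AMP to adenosine, and had few reads. It had 33, 28 and 80 reads in BODIPY-high libraries 1, 2 and 3, and 18, 5 and 8 reads in BODIPY-low libraries 1, 2 and 3 (log2 change 1.98 ± 0.65, limma adjusted p = 0.265). Per kb of exon Nt5e stood at 5.21 in BODIPY-high and 1.29 in BODIPY-low libraries, where Entpd1 stood at 6769 and 7333. Enpp1, which cleaves ATP to AMP and pyrophosphate, was the most abundant of the other ectoenzymes with 1164 ± 139 normalized counts in BODIPY-high and 1029 ± 65.0 in BODIPY-low libraries (adjusted p = 0.767). Entpd2 and Entpd3 had at most 23 reads in any library. Of the NTPDases inside the cell, Entpd6 led with 1328 ± 91.3 in BODIPY-high and 1491 ± 81.1 in BODIPY-low libraries (adjusted p = 0.711).

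Of the carriers and enzymes of adenosine, Slc29a3, a nucleoside transporter of lysosomes, had 41309 ± 6114 normalized counts in BODIPY-high and 48243 ± 7246 in BODIPY-low libraries (log2 change -0.22, limma adjusted p = 0.704). Pnp, purine nucleoside phosphorylase, had 5434 ± 154 and 6307 ± 493 normalized counts in the BODIPY-high and BODIPY-low gates (log2 change -0.21 ± 0.091, adjusted p = 0.469), with no overlap. Slc28a2, a concentrative nucleoside transporter, had 123, 216 and 464 normalized counts in BODIPY-high libraries 1, 2 and 3, and 93.3, 135 and 116 in BODIPY-low libraries 1, 2 and 3 (adjusted p = 0.475), with its highest value in the library richest in macrophage markers. Among genes of ATP release, the pannexin channel gene Panx1 had the highest count but the lowest level per kb of the 3 tested, with 514 ± 124 in BODIPY-high and 547 ± 150 normalized counts in BODIPY-low libraries (adjusted p = 0.957).

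Downstream of the receptors, Gnai2, a Gi alpha subunit gene and the most abundant of the Gi effector list, had 26820 ± 1441 normalized counts in BODIPY-high and 26706 ± 734 in BODIPY-low libraries (log2 change 0.0052, limma adjusted p = 0.992). Kcnk13, the potassium channel THIK-1 through which microglia keep their membrane potential and survey tissue, had 9901 ± 1374 and 11573 ± 1457 in the BODIPY-high and BODIPY-low gates (log2 change -0.23, adjusted p = 0.657). Gnai1 had 49, 71 and 75 reads in BODIPY-high libraries 1, 2 and 3, and 3, 0 and 16 reads in BODIPY-low libraries 1, 2 and 3. Its log2 change of 3.89 ± 0.96 did not pass (limma adjusted p = 0.1004). With the library number as a block Gnai1 passed (adjusted p = 0.0222, 4.37% of genes called higher), as it did with DESeq2 (3.63% called higher). Gnai1 and Adora2b were higher in the gate in which choroid plexus and macrophage markers rose, and the part of those cells in the 2 genes was not tested. Of the inflammasome and P2X effector genes, the kinase gene Mapk14 was highest. Limma, edgeR and DESeq2 each called 0 of the 6 tested, against 2.05%, 1.75% and 3.89% of all genes. At an unadjusted limma p under 0.05, 0 of 6 were higher or lower, against 8.03% and 2.27% of all genes. Il1b, the cytokine released on P2X7 activation, averaged 652 ± 107 in BODIPY-high and 580 ± 77.1 normalized counts in BODIPY-low libraries (log2 change 0.17, adjusted p = 0.852).

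**Figure D5:**
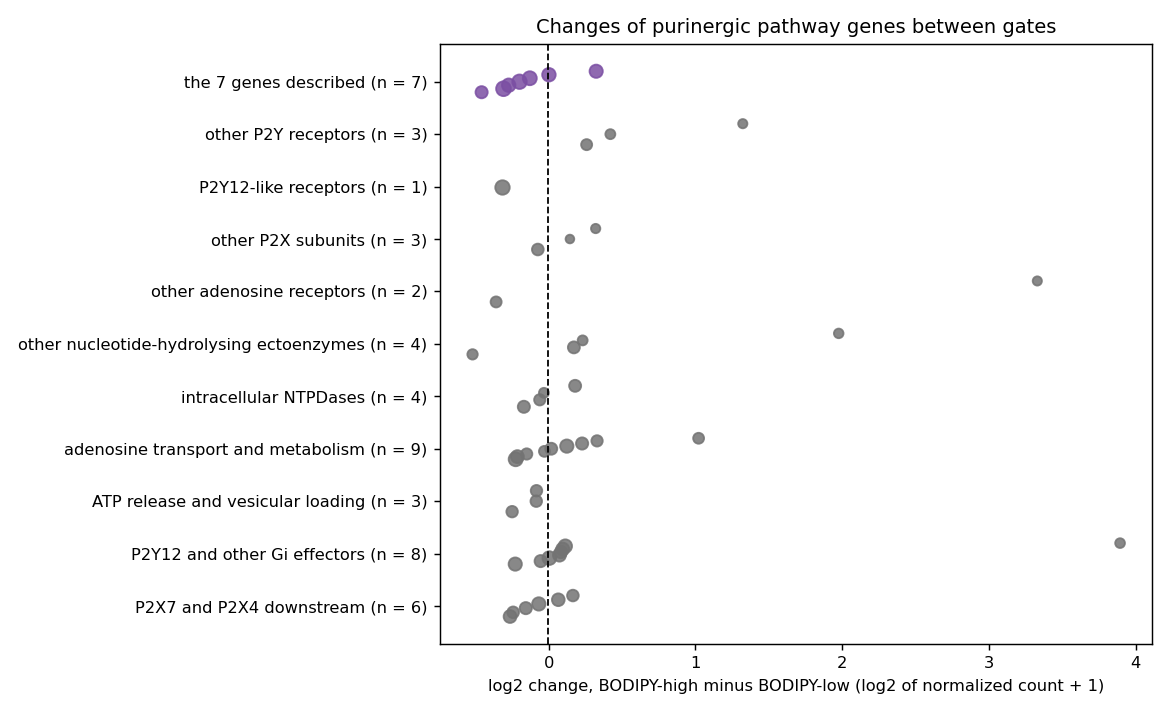
Log2 change between gates (BODIPY-high minus BODIPY-low) of each tested gene of the pathway, by list, with larger points for higher mean levels and a dashed line at the median of all genes tested (-0.0043). The 7 genes described (purple) lie between -0.46 and 0.32, and the 3 farthest points, Nt5e, Adora2b and Gnai1, belong to genes with few reads.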

How the data were processed

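RNA of 6 sorted samples, 3 per gate, was sequenced. Per the labels' protocols, libraries were made from total RNA with the SmartSeq v4 and Nextera XT kits. The series' design text names FastQC 0.11.4 for read quality, STAR 2.5.3a for alignment to mm10 and for gene counts, and DESeq2 for the authors' own comparison. The submitters' processing notes list mm9 as well. The deposited signal values are gene counts divided by a size factor per library, and every value was a whole multiple of 1 step (tolerance 0.05 of a read, 100% of values). The recovered totals were 34899413 to 39220494 reads per library. All pairs of libraries differed by more than sampling noise (chi-square per degree of freedom of at least 30.8). No molecular identifiers were used, so the floor of 3 reads for a count of 0 covers counting error only.

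Gates were compared with limma-trend (limma 3.58.1, R 4.3.3), fitted to log2(normalized count + 1) with no term beside the gate. The added 1 makes the changes of low genes appear smaller. Alternatives were edgeR 4.0.16 and DESeq2 1.42.0 on recovered reads, pseudocounts of 0.5 and 10, no filter or one of 50, TMM scaling, centring on microglia markers, a replicate block and leaving out each library. The fit was tested on simulated data. Same-numbered libraries deviated together from their gate means over genes (r = 0.354, 0.244 and 0.363). The numbers were therefore used as pairs in the replicate block and in the comparisons within same-numbered pairs. The main fit took no account of them, and the labels do not say what a number marks. Positions and exon lengths came from GENCODE M21 (mm10), in which 15281 symbols were found, and 8 promoter sequences of 6 of the genes from RefSeq (GRCm38.p6). Members and lists were chosen with earlier results of these data known. Named beside the 7 genes were, of each list, called genes and the gene of highest level, genes next to or overlapping the 7, and the 3 nearest profiles of each. P2ry1, P2ry14, Adora2a, Adora2b, Entpd2, Entpd3, Nt5e, Pnp, Slc28a2, Gnai1, Kcnk13 and Il1b were named after their values were seen, for their role, low p or place. Adk and Ampd2 were named for their lack of overlap between gates, also after their values were seen.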

Additional observations from a re-analysis of the deposited data

How the results depend on the processing

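Of the 7 genes, P2ry12, P2ry6, P2rx4 and Adora3 kept their direction under all 17 alternatives run. Once centred on microglia markers, however, P2ry6 was only -0.050 and P2ry12 only -0.085, each smaller than its SE. Without BODIPY-high library 3, P2ry12 was only -0.068, also smaller than its SE. With the replicate block, Adora3 passed at the same log2 change of -0.46, 1 gene of the 7, 1 other pathway gene (Gnai1) and 617 genes in all were called, and no other of the 7 changed its call. DESeq2 gave -0.47 for Adora3, -0.0044 for P2rx7, and calls of 1, 1 and 496. P2rx7 was -0.013 with edgeR and -0.018 with TMM scaling. Centring on microglia markers gave 0.024 for P2ry13 and 0.094 for Entpd1, the same as with the block added. That combination, chosen after seeing the data, called P2rx4 (0.55, adjusted p = 0.0034, against 0.0628 to 0.684 in the other alternatives), 1 gene of the 7, 8 other pathway genes and 1644 in all, with the median of all genes at 0.22. The other pathway count was 1 with a pseudocount of 10, and the count of all genes was 132 with the filter of 50 and 117 without both libraries numbered 3, also chosen after seeing the data. With 1 library left out, the change ran from -0.064 to 0.073 for P2rx7, from -0.38 to 0.035 for P2ry13 and from -0.31 to 0.031 for Entpd1. The pathway count was then 0 to 1 (Gnai1, without BODIPY-low library 3). The count of all genes was 15 to 273: 169, 15 and 59 without BODIPY-high library 1, 2 or 3, and 135 and 117 without BODIPY-low library 1 or 2. The causes were not tested. Each of the 7 genes had at least 1226 reads per library, whereas Nt5e, Adora2b and Gnai1 rest on at most 80 reads in a library.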
